A study of Mus musculus with 2 samples.

Results

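The nuclear-encoded subunits of the mitochondrial respiratory chain were described across the cell classes of the mouse brain. Members were the genes whose symbol starts with one of 16 prefixes of respiratory chain subunits (such as Ndufa, Sdh, Uqcr, Cox and Atp5), and the rule used no measured value. It took 93 of the 25827 genes in the count tables: 38 of complex I, 4 of complex II, 8 of complex III, 19 of complex IV and 18 of complex V. The other members that the prefixes take in are the 4 Sdhaf assembly factors of complex II, the supercomplex factor Cox7a2l and the pseudogene Cox5b-ps. The 93 entries carry 92 symbols because Atp5o stands under 2 gene identifiers, 1 of which had no UMI. In the 11 cell classes compared here, 91 members had at least 1 UMI and 88 had at least 100. Cox8c, a testis form of a complex IV subunit, had none.

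Single cells came from the whole brain of adult mice of 2 genotypes, IL34LacZ/+ and IL34LacZ/LacZ, with 1 library per genotype. Both genotypes carry at least 1 allele of Il34, the gene of the cytokine interleukin-34, marked lacZ, so neither library is wild type. The labels give a sort of mural cells with fibroblasts (CD13+ and/or CD140a+O4-), endothelial cells (CD31+), astrocytes (ACSA-2+), microglia (CD11b+F4/80hi) and border-associated macrophages (CD11bhiF4/80+), called BAMs. How many animals entered each library is not given, so every difference between genotypes below compares 2 libraries, has no replicate check and has no p-value. Intervals cover counting error only.

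The respiratory chain passes electrons from NADH and succinate through complexes I to IV to oxygen and pumps protons across the inner mitochondrial membrane, and complex V, the ATP synthase, uses the proton gradient to make ATP. A small core of subunits is encoded by mitochondrial DNA, and all others, including every member here, are encoded in the nucleus and imported. Several complex IV subunits and the c ring of complex V have more than 1 nuclear gene, and some of these forms are known from muscle, testis, lung or pericytes rather than from most tissues. The choroid plexus epithelium, which secretes cerebrospinal fluid, is known for its many mitochondria.

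The IL34LacZ/+ library held 17168 cell barcodes and 87394167 UMIs and the IL34LacZ/LacZ library 18858 barcodes and 95505407 UMIs. Of these, 8188 and 9553 cells were kept, and 37.2% and 34% of barcodes were over the limit of 10% mitochondrial UMIs. The libraries shared 103 barcode sequences, 25 of them among kept cells. Il34 itself had 6.64 and 6.61 CPM (UMIs of a gene per 1000000 UMIs) over all barcodes and 120 and 105 CPM in mural-like cells; how the lacZ allele alters Il34 is not described in the labels, so these 3′ tags cannot check the genotypes. Clusters were named from marker genes that held no member, and 11 classes had at least 50 cells in both libraries. They included neuron-like, oligodendrocyte-like, ependymal-like and choroid plexus epithelial-like cells, which the sort did not aim at, while no class of astrocyte-like cells reached 50 cells. The classes are rebuilt here and may differ from those of the study.

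Respiratory chain transcripts were by far the most abundant in choroid plexus epithelial-like cells and the least abundant in neuron-like cells. Summed over all members, choroid plexus epithelial-like cells had 61851 CPM in the IL34LacZ/+ library and 62364 CPM in the IL34LacZ/LacZ library, 8.75-fold and 9.69-fold the level of neuron-like cells at 7067 and 6434 CPM. The transthyretin gene Ttr alone made up 30.8% and 29.5% of the UMIs of choroid plexus epithelial-like cells, and of their other UMIs the members were 8.94% and 8.84%. Setting Ttr aside thus widened the distance to the other classes. Neuron-like cells held UMIs of Ttr too. With the choroid plexus profile subtracted in proportion to Ttr, their members summed to 4772 and 5448 CPM, still the lowest of the classes. Neuron-like values below are without this subtraction unless it is named.

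The other classes lay between these extremes. Ependymal-like cells (24359 and 24788 CPM), monocyte-like cells (25124 and 22971), fibroblast-like cells (24105 and 23775), mural-like cells (24957 and 21180.4) and oligodendrocyte-like cells (20638 and 21271) came next. Neighbours among these 5 did not lie apart in both libraries. Endothelial-like cells followed with 20428 and 20374 CPM, below oligodendrocyte-like cells in both libraries. In the IL34LacZ/+ library the counting intervals overlapped (20301 to 20555 in endothelial-like and 20276 to 21004 in oligodendrocyte-like cells). BAM-like cells had 16644 and 16683 CPM, above both microglia-like (14299 and 13784) and neutrophil-like cells (14174 and 14509), which did not lie apart from each other. Both libraries put the brain macrophages, and microglia-like cells more than BAM-like cells, on the low side of the vascular classes. Of the members, 75 were highest in choroid plexus epithelial-like cells and 3 each in ependymal-like, monocyte-like and mural-like cells. Of those with enough UMIs, 71 were lowest in neuron-like, 10 in neutrophil-like, 3 in oligodendrocyte-like and 1 in BAM-like cells. The shares of all genes highest or lowest in these classes are not given here, so whether these counts are particular to the members was not tested.

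**Figure D1:**
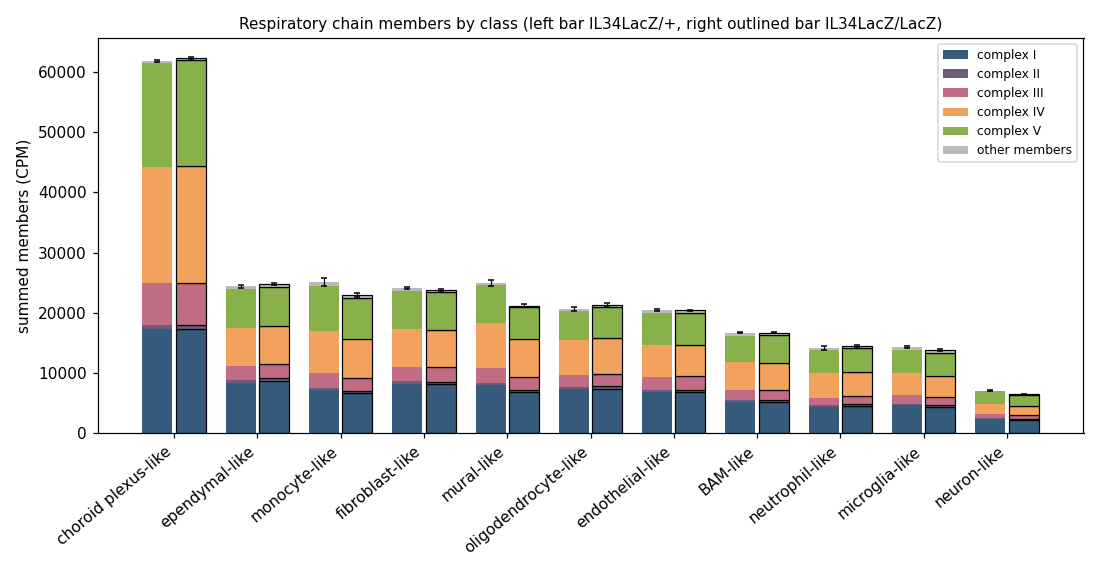
Summed level of the members in CPM (vertical axis) in the 11 classes (horizontal axis), split by complex, with the IL34LacZ/+ library on the left of each pair and the IL34LacZ/LacZ library, outlined, on the right; error bars are exact Poisson 95% intervals. Choroid plexus epithelial-like cells stand at 61851 and 62364 CPM and neuron-like cells at 7067 and 6434 CPM, and the widest gap between the libraries is in mural-like cells (24957 and 21180.4 CPM).

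The mix of complexes varied far less than the total. Complex I made up between 27.8% (choroid plexus epithelial-like, IL34LacZ/LacZ) and 35.6% (oligodendrocyte-like, IL34LacZ/+) of member UMIs, and complex IV between 22.7% (neuron-like, IL34LacZ/LacZ) and 31.3% (choroid plexus epithelial-like, IL34LacZ/LacZ). Complex II, which links the chain to the citric acid cycle, was the exception: its share was 3.11% and 3.23% in neuron-like cells against 0.972% and 0.930% in choroid plexus epithelial-like cells. The order of the classes in complex II share was thus the reverse of that in the total at both ends.

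Among complex I members, which take electrons from NADH, the accessory subunit Ndufa13 had the highest mean over the classes (407 CPM), and Ndufb11b had 1 UMI. Each captured 3′ end gives 1 UMI, so CPM of different genes are not divided by transcript length here. Ndufa1, a small subunit of the membrane arm, spanned the widest range of the well counted members of the complex. Its level was 872 and 1041 CPM in choroid plexus epithelial-like cells and 37.6 and 43.9 CPM in neuron-like cells, and all other classes lay between 89.9 and 233 CPM. Ndufa11, another membrane arm subunit, had 1079.8 and 996 CPM in choroid plexus epithelial-like cells and 72.7 and 63.0 CPM in neuron-like cells. Choroid plexus epithelial-like cells therefore stood above the range of the other 10 classes for both genes.

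Ndufs1 followed another order. This core complex I subunit of the matrix arm, which carries iron-sulfur clusters of the part that receives electrons from NADH, was the member highest in neuron-like cells, at 97.2 and 98.2 CPM against 70.1 and 72.8 CPM in choroid plexus epithelial-like cells. As a share of member UMIs it was 6.25-fold and 7.67-fold its median over the classes in neuron-like cells. The shares of the core subunits Ndufs3 and Ndufv1 and of the accessory subunits Ndufa10 and Ndufa12 were also between 2.08-fold and 3.47-fold their medians in neuron-like cells. Other core subunits of the same arm did not take such a share there. Ndufs8 had 22.1 and 18.2 CPM, with a share 0.723-fold and 0.668-fold its median, Ndufs7 had 65.3 and 73.7 CPM (1-fold and 1.24-fold) and Ndufv2 43.3 and 41.4 CPM (1.20-fold and 1.37-fold). Each of these 3 had its lowest level of the 11 classes in neuron-like cells, so the larger shares were those of some subunits and not of the whole arm.

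Complex II, succinate dehydrogenase, spanned a narrower range than the other complexes among its well counted subunits. Its iron-sulfur subunit Sdhb had the highest mean of the 4 subunits (106 CPM) and the membrane anchor Sdhd the lowest (63.4 CPM). The other anchor subunit, Sdhc, ran from 178 and 174 CPM in choroid plexus epithelial-like cells to 38.4 and 32.7 CPM in neuron-like cells. The flavoprotein Sdha, the catalytic subunit, was highest in ependymal-like cells (165 and 175 CPM) and lowest on average in neutrophil-like cells (70.7 and 47.6 CPM). Its neuron-like level of 115 and 131 CPM lay close to that of choroid plexus epithelial-like cells with 126 and 130 CPM. Sdha was thus a member for which neuron-like cells were not near the bottom. Among the assembly factors, Sdhaf4 had 147 and 176 CPM in ependymal-like cells and 152 and 143 CPM in choroid plexus epithelial-like cells. Sdhaf1 in choroid plexus epithelial-like cells (24.9 and 21.2 CPM) lay below its level in endothelial-like cells (51.9 and 38.1 CPM), so the high choroid level did not extend to every member.

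Complex III, the cytochrome bc1 complex, was led by its hinge subunit Uqcrh with a mean of 533 CPM, and the core subunit Uqcrc1 had the lowest mean (102 CPM). Uqcr11, a small membrane subunit, reached 1396 and 1494 CPM in choroid plexus epithelial-like cells against 74.3 and 91.1 CPM in neuron-like cells, and Uqcrb, a subunit near the quinone site, 1173 and 1129.8 CPM against 84.9 and 70.0 CPM. For both, every other class lay at or below 473 CPM. Uqcrc1 spanned far less, from 199 and 181 CPM in choroid plexus epithelial-like cells to 61.7 and 65.7 CPM in neutrophil-like and 80.9 and 59.6 CPM in neuron-like cells.

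Among complex IV members, cytochrome c oxidase, Cox4i1, the widely expressed form of subunit 4, had the highest mean of all (1039 CPM). It had 3163 and 2849 CPM in choroid plexus epithelial-like cells and 279 and 249 CPM in neuron-like cells. Cox8a, the widely expressed form of subunit 8, reached 3346 and 3613 CPM in choroid plexus epithelial-like cells against 234 and 200.5 CPM in neuron-like cells, and Cox7b, another small structural subunit, 1138 and 1155 CPM against 78.4 and 61.7 CPM. These gaps were wider than that of the summed members. Cox6a1 (723 and 760 CPM in choroid plexus epithelial-like cells), Cox6b1 (935 and 956 CPM) and Cox7a2 (1161 and 1182 CPM), the widely expressed forms of their subunits, followed the same order at both ends. Cox7a2l, which helps join complexes III and IV into supercomplexes, did not: it was highest in monocyte-like cells (531 and 414 CPM), followed by microglia-like (362 and 342 CPM) and BAM-like cells (357 and 332 CPM), and choroid plexus epithelial-like cells had 227 CPM in each library.

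The second form of subunit 8, Cox8b, known from heart and skeletal muscle, was high in choroid plexus epithelial-like cells. Its promoter is printed with that of Cox8a because the pair encodes the same subunit and both were highest in that class, and that of Atp5g1, the complex V member with the widest span, follows for the same reason. The windows run from 250 bases before to 50 bases after the transcription start in RefSeq annotation of GRCm38.p6, 5′ to 3′ on the strand of the gene, with capitals marking ETS-type motifs (CCGGAAG, here on the other strand) in Cox8a and the hypoxia-type core ACGTG on either strand, with the E-box CACGTG that contains it, in Cox8b and Atp5g1.
Cox8a, chr19:7217567-7217866, minus strand: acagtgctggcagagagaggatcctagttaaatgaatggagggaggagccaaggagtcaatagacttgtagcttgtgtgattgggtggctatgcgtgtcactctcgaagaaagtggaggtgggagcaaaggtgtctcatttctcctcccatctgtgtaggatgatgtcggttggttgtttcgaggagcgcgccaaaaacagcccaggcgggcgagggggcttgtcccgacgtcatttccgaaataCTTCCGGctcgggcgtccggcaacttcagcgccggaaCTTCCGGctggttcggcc
Cox8b, chr7:140900397-140900696, minus strand: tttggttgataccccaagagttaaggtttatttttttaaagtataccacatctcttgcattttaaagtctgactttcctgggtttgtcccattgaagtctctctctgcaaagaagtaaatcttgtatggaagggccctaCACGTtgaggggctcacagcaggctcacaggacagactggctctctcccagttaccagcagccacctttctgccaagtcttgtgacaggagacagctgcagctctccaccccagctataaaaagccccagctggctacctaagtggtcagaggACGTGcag
Atp5g1, chr11:96075582-96075881, minus strand: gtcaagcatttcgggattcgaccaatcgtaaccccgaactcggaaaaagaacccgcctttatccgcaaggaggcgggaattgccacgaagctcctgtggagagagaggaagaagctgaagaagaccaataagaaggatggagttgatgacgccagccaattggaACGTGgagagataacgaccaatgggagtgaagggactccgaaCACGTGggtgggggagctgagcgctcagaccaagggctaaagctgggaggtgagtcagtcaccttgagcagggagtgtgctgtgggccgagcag

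Cox8b (chr7:140898945-140900446, minus strand) had 312 and 349 CPM in choroid plexus epithelial-like cells, and no other class was above 14.3 CPM in either library. It was found in 61.8% and 57.9% of these cells, and in 24.6% and 23.0% after each cell was thinned to 1000 UMIs. In microglia-like cells, which should lack the gene, 1.33% and 0.674% of cells had a UMI (0.796% and 0.482% after thinning), at a median depth of 2692.5 and 3075.5 UMIs against 13925 and 14202. Cox8b was still a minor form beside Cox8a, at 8.54% (95% Clopper-Pearson interval 8.30 to 8.79) and 8.81% (8.49 to 9.15) of the UMIs of the pair in choroid plexus epithelial-like cells.

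Cox6b2, the testis form of subunit 6b, was also highest in choroid plexus epithelial-like cells (279 and 256 CPM), at 23.0% and 21.1% of the pair with Cox6b1. Unlike Cox8b it had a second tier, with fibroblast-like cells at 78.8 and 74.1 CPM and ependymal-like cells at 68.0 and 59.6 CPM. Cox7a1, the heart and muscle form of subunit 7a, showed a like order at lower level, with 85.0 and 111 CPM in choroid plexus epithelial-like cells and 30.6 and 36.4 CPM in ependymal-like cells. Cox6a2, the heart and muscle form of subunit 6a, was highest in monocyte-like cells at 140.3 and 41.7 CPM. That level came from 4 of 54 and 3 of 103 cells, and 32.4% and 50% of its UMIs came from 1 cell, so it describes few cells and not the class. Cox7b2 stayed at or below 1.81 CPM everywhere.

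Mural-like cells, pericytes and smooth muscle cells of vessel walls, were marked by 2 complex IV members that were not used to define them. Ndufa4l2 (chr10:127514967-127517154, plus strand), a hypoxia-responsive relative of the complex IV subunit Ndufa4, had 865 and 872 CPM in mural-like cells. Cox4i2 (chr2:152754173-152765037, plus strand), the form of subunit 4 known from lung and pericytes, had 518 and 702 CPM there. In all other classes, taken whole, Ndufa4l2 was at or below 13.9 CPM and Cox4i2 at or below 9.02 CPM in both libraries. The class values of mural-like cells thus did not overlap those of the other classes. Within fibroblast-like cells, the cluster with the most Ndufa4l2 had 35.2 and 56.1 CPM, below the mural-like level. The share of all genes that separate mural-like cells in this way is not given here. Whether the separation is particular to these 2 members was not tested. Both genes were found widely within the mural-like class rather than from a few cells. Ndufa4l2 had a UMI in 76.6% and 78.4% of mural-like cells (59.8% and 58.5% after thinning). Cox4i2 had a UMI in 67.4% and 67.1% (50.5% and 49.3% after thinning). In endothelial-like cells, at a median of 2100 and 2080.5 UMIs against 1686.5 and 1868, the shares were 2.30% and 1.63% for Ndufa4l2 and 2.03% and 1.10% for Cox4i2.

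These forms made up a large part of their pairs in mural-like cells. Ndufa4l2 was 65.7% (95% Clopper-Pearson interval 61.9 to 69.4) of the UMIs of Ndufa4l2 and Ndufa4 in the IL34LacZ/+ library and 80.4% (77.7 to 82.9) in the IL34LacZ/LacZ library. Cox4i2 was 34.1% (30.7 to 37.7) and 49.3% (46.5 to 52.2) of Cox4i2 and Cox4i1. The share was thus higher in the IL34LacZ/LacZ library for both pairs. Without the mural-like cells that had at least 5% choroid plexus marker UMIs, the Ndufa4l2 shares were 77.1% and 82.7% and the Cox4i2 shares 42.1% and 50.5% in the same order of libraries, so the gap between the libraries was smaller. Without those that had at least 10 endothelial marker UMIs, the shares were 81.8% and 87.9% for Ndufa4l2 and 43.6% and 52.6% for Cox4i2.

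**Figure D2:**
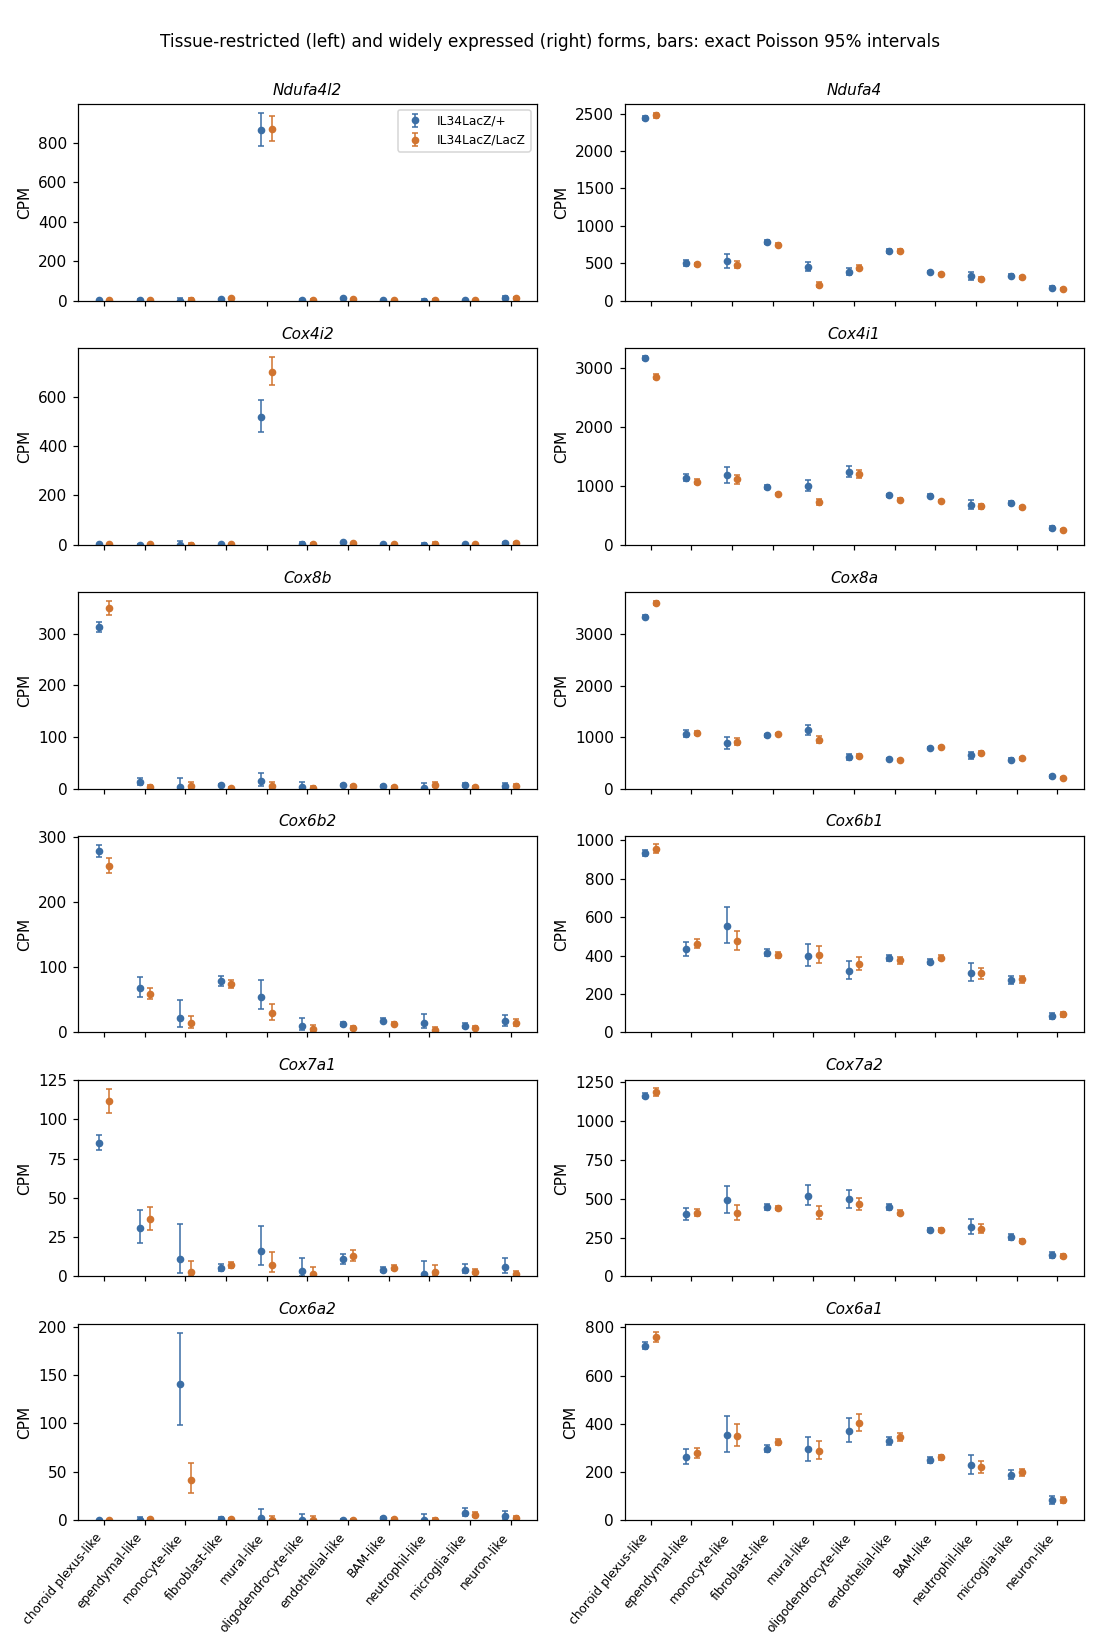
Level in CPM (vertical axes, each from 0) in the 11 classes (horizontal axis) of 6 tissue-restricted members (left column) and their widely expressed partners (right column); blue points are the IL34LacZ/+ library, orange points the IL34LacZ/LacZ library and bars exact Poisson 95% intervals. Ndufa4l2 and Cox4i2 stand alone in mural-like cells, Cox8b in choroid plexus epithelial-like cells (312 and 349 CPM), and the Cox6a2 value in monocyte-like cells comes from 4 and 3 cells.

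In complex V, Atp5e, the small epsilon subunit of the catalytic head, had the highest mean (656 CPM), with 1613 and 1741 CPM in choroid plexus epithelial-like cells against 118 and 134 CPM in neuron-like cells. Atp5g1 (chr11:96068852-96075670, minus strand) is 1 of 3 genes that encode the same mature c subunit of the proton-driven ring. It had 2460 and 2216 CPM in choroid plexus epithelial-like cells, and the next highest value in any class and library was 363 CPM. Its partners differed less: Atp5g2 had 553 and 541 CPM and Atp5g3 663 and 670 CPM in choroid plexus epithelial-like cells. The c subunit was therefore encoded by a different mix of genes in that class, with Atp5g1 at 66.9% and 64.7% of the UMIs of the 3 genes, against 45.6% and 36.9% in neuron-like cells and 35.7% and 25.6% in mural-like cells. Both of these classes also held UMIs of Ttr. With the choroid plexus profile subtracted in proportion to Ttr, Atp5g1 went from 149 and 102 to 52.6 and 64.6 CPM in neuron-like cells. In mural-like cells it went from 363 and 204 to 167 and 151 CPM. The shares given here are without that subtraction.

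**Figure D3:**
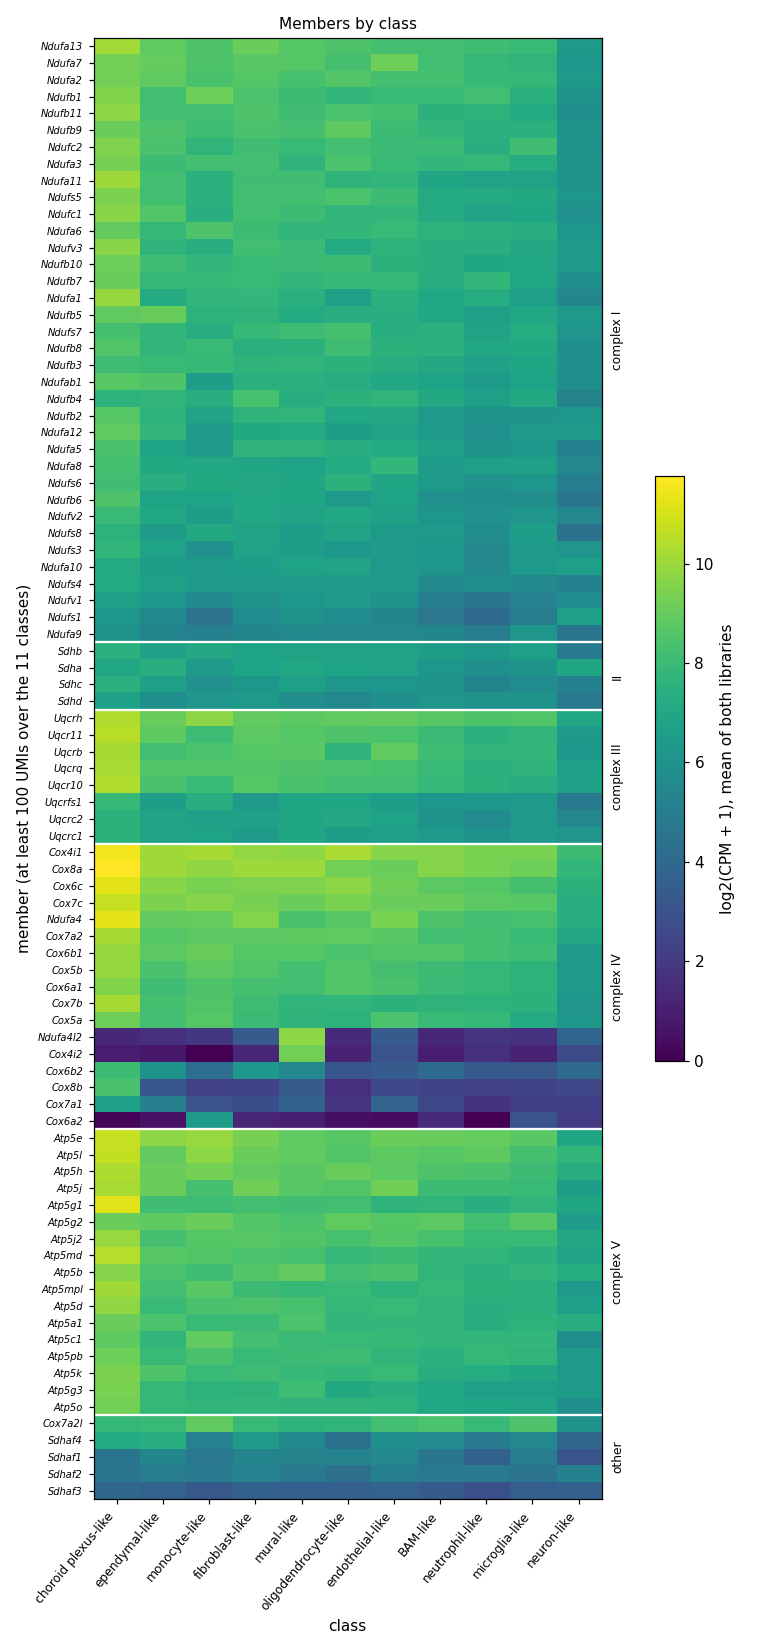
Level of members with at least 100 UMIs (rows, grouped by complex) in the 11 classes (columns), as log2(CPM + 1) of the mean of both libraries, on a colour scale from 0 (dark) to the highest level (yellow). The choroid plexus epithelial-like column is the brightest for most members and the neuron-like column the darkest, and Ndufa4l2 and Cox4i2 are bright in the mural-like column alone.

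The tissue-restricted members also led the comparison of mural-like with endothelial-like cells, which touch each other in the vessel wall. Of 86 members with at least 100 UMIs, 8 were at least 1.5-fold higher in mural-like cells in both libraries (14.4% of all genes were) and 3 were lower (15.3% of all genes were). Ndufa4l2 was 75.4-fold and 118-fold higher, Cox4i2 57.5-fold and 134-fold and Cox6b2 4.41-fold and 4.38-fold. Cox8a was 2.0-fold and 1.71-fold higher. The complex IV forms thus led the list, and the core complex I subunits Ndufs7 and Ndufs1 and the c subunit gene Atp5g3 were also past 1.5-fold. Lower were Ndufa8, a complex I subunit of the intermembrane space (0.536-fold and 0.475-fold), Cox5a, a core-binding subunit of complex IV (0.624-fold and 0.522-fold), and Cox7a2l (0.656-fold and 0.615-fold). The next lowest were Ndufa4 at 0.680-fold and 0.321-fold and Atp5j, a stalk subunit of complex V, at 0.758-fold and 0.646-fold. The median member was 1.17-fold and 1.0-fold, beside 1.01-fold and 1.05-fold for all genes, so the classes differed in a few members and not in the typical one. Without the cells rich in choroid plexus markers, 5 members were higher and 5 lower.

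Border-associated macrophages and microglia are the macrophages of brain borders and of the tissue itself. Of 84 members, Cox6b2 (1.82-fold and 1.93-fold) and Cox5a (1.81-fold and 1.68-fold) were at least 1.5-fold higher in BAM-like cells in both libraries, beside 10.8% of all genes. Ndufa9, a complex I subunit at the junction of its arms, was lower (0.581-fold and 0.606-fold), beside 15.2% of all genes. The following highest were Ndufa5 (1.40-fold in each library), Cox6c (1.38-fold and 1.48-fold) and Cox8a (1.41-fold and 1.38-fold), and the following lowest Ndufs8, Uqcrc2, Sdhaf1 and Ndufa8, between 0.734-fold and 0.869-fold. Most members leaned the same way, with a median of 1.13-fold and 1.19-fold beside 0.900-fold and 0.915-fold for all genes. Ndufa9 also stood out in its profile: its share of member UMIs in microglia-like cells was 2.42-fold and 2.30-fold its median over the classes.

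Between the genotypes, few members were 1.5-fold apart in any class. Over 860 pairs of a member and a class with at least 100 UMIs, 5 were at least 1.5-fold higher in the IL34LacZ/LacZ library (2.58% of all pairs of a gene and a class were) and 11 were lower (1.39% of all pairs were). The ratio of the summed members, IL34LacZ/LacZ over IL34LacZ/+, lay between 0.964 and 1.03 in 8 of the 11 classes. It was 0.914 in monocyte-like cells, 0.910 in neuron-like cells and 0.849 (95% interval 0.829 to 0.868) in mural-like cells. BAM-like and endothelial-like cells were near 1 (1.002 and 0.997), while microglia-like cells were slightly lower, at 0.964 (0.951 to 0.977). The neuron-like ratio was not stable: it was 0.996 without cells with at least 5% choroid plexus marker UMIs and 1.14 once the choroid plexus profile was subtracted in proportion to Ttr, and choroid plexus markers in that class summed to 13210 and 5613 CPM (all 7 with UMIs in both libraries). The fibroblast-like ratio moved from 0.986 to 1.01 under both of these changes, with marker sums of 8191 and 2889 CPM.

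In mural-like cells 5 of 77 members were at least 1.5-fold lower in the IL34LacZ/LacZ library (5.23% of all genes were) and none was higher (6.76% of all genes were). Ndufa4 had 451 and 213 CPM, a ratio of 0.472 (0.385 to 0.577), and Atp5g1 had 363 and 204 CPM, a ratio of 0.563 (0.454 to 0.698). Cox7b had 263 and 150.1 CPM (0.570, 0.443 to 0.734), Atp5o, the subunit that joins the stalk and head of complex V, 255 and 151 CPM (0.593, 0.460 to 0.765), and Ndufb10, a complex I membrane arm subunit, 316 and 203 CPM (0.643, 0.514 to 0.804). Complexes I, III, IV and V had summed ratios between 0.831 and 0.855, and complex II 1.02 (0.856 to 1.23). All 4 of the larger complexes were thus lower by a like ratio, while the mural-enriched forms were not: Ndufa4l2 had a ratio of 1.01 (0.893 to 1.14) and Cox4i2 of 1.35 (1.17 to 1.57). The drop was not particular to the members. In the same cells glycolysis genes summed to 2852 and 2151 CPM and cytosolic ribosomal proteins to 60156 and 50345 CPM. The tricarboxylic acid cycle (1021 and 1028 CPM) and mitochondrial ribosomal proteins (4138 and 3954 CPM) differed less.

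Markers of another cell type moved with the mural-like values. All 7 choroid plexus epithelial markers measured had UMIs in mural-like cells of both libraries, and their sum was 28212 CPM in IL34LacZ/+ and 8179 CPM in IL34LacZ/LacZ. Cells with at least 5% choroid plexus marker UMIs were 8 of 184 and 5 of 347 mural-like cells, and they held 26.6% and 4.43% of the member UMIs of the class. Without them the summed ratio was 0.960 and the median member ratio moved from 0.837 to 0.966. At least 1.5-fold lower were then 2 members (4.2% of all genes were). Of the 5 named above this was Ndufa4 alone, and Ndufb5, a membrane arm subunit, came in at a ratio of 0.666 against 0.670 with all cells. Ndufa4 was then at 291 and 184 CPM (0.632, 0.495 to 0.809), Atp5g1 at 205 and 179 CPM (0.876, 0.667 to 1.16) and Cox4i2 at a ratio of 1.20 (1.04 to 1.40). The mural-like difference was therefore smaller without these few cells, and Ndufa4 was past 1.5-fold with and without them. All 10 endothelial markers also had UMIs in mural-like cells (4736 and 3511 CPM). Mural-like cells with at least 10 endothelial marker UMIs were 26 of 184 and 32 of 347, with 39.5% and 24.7% of the UMIs of the class. Without them the median member ratio was 0.823. Ndufa4 had a ratio of 0.524 (0.383 to 0.719), Atp5o of 0.538 (0.392 to 0.740) and Cox7b of 0.625 (0.451 to 0.871), each past 1.5-fold. Atp5g1 (0.714) and Ndufb10 (0.710) were not past it. Cox4i2 had a ratio of 1.09 (0.927 to 1.29) and Ndufa4l2 of 0.851 (0.746 to 0.971). Of 16 genes of the dissociation and immediate-early response, 15 were measured in mural-like cells and 14 were at least 1.5-fold lower in IL34LacZ/LacZ, with a sum of 7830.3 and 2602 CPM, and their part in the result was not tested.

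**Figure D4:**
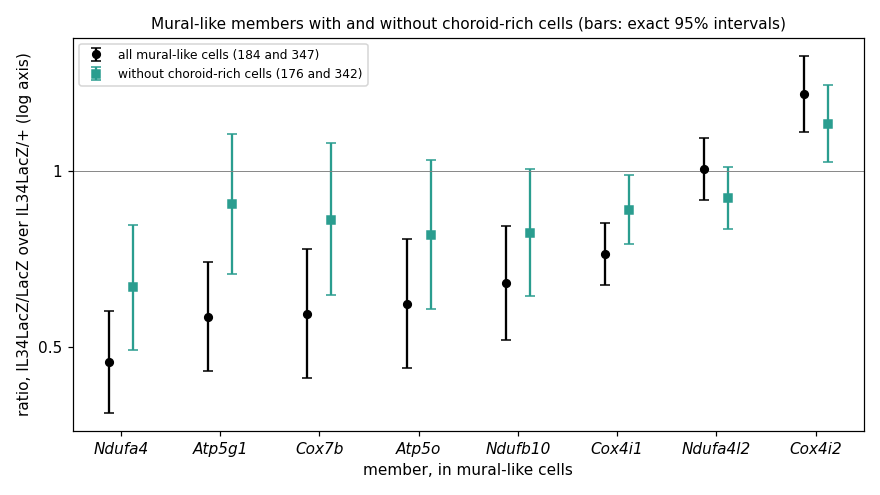
Ratio of CPM, IL34LacZ/LacZ over IL34LacZ/+ (vertical log axis), of 8 members in mural-like cells (horizontal axis), over all 184 and 347 cells (black circles) and without the cells with at least 5% choroid plexus marker UMIs (green squares); bars are exact 95% intervals for counting error. Ndufa4 moves from 0.472 to 0.632 and stays below 1, while the intervals of Atp5g1, Cox7b, Atp5o and Ndufb10 reach 1 without those cells.

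Elsewhere the members past 1.5-fold differed from class to class. In fibroblast-like cells 1 of 84 was higher (1.62% of all genes were) and none was lower (1% were). It was Ndufa4l2, at 7.26 and 11.3 CPM, a ratio of 1.56 (1.04 to 2.38). Its level in that class was low and came mostly from 1 of 3 clusters, with 35.2 and 56.1 CPM. Mural markers in fibroblast-like cells summed to 592 and 869 CPM, also higher in IL34LacZ/LacZ, and their part in this difference was not tested. In neuron-like cells Ndufa3, a membrane arm subunit, was higher at 49.0 and 84.5 CPM (3.47% of all genes were), and Atp5d, the delta subunit of the catalytic head, at 118 and 76.6 CPM and Ndufb9, another membrane arm subunit, at 81.7 and 51.4 CPM were lower (2.8% were). Cells with at least 5% choroid plexus marker UMIs held 15.04% and 2.99% of the member UMIs of neuron-like cells. Without them Atp5d was at 107.8 and 75.7 CPM, a ratio of 0.702 (0.556 to 0.888) that is no longer past 1.5-fold, while Ndufa3 and Ndufb9 were past it. In oligodendrocyte-like cells Atp5k, a small membrane subunit of complex V, was higher at 160 and 285 CPM and Ndufb1, a membrane arm subunit, at 171 and 269 CPM (1.9% of all genes were), and Sdhb was lower at 141 and 92.9 CPM (1.57% were). These are single members in classes of 96 to 1099 cells per library.

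In neutrophil-like cells Ndufs6, a matrix arm subunit, was higher at 50.8 and 76.2 CPM (3.83% of all genes were) and Sdhd lower at 79.8 and 50.4 CPM (2.14% were). Without the cells rich in choroid plexus markers both were past 1.5-fold, and Ndufb1 was too, at a ratio of 1.52 against 1.41 with all cells. In monocyte-like cells Ndufs6 was lower at 167 and 111 CPM and Atp5o at 254 and 156 CPM (2.69% of all genes were), and none was higher (6.03% were). The direction of Ndufs6 thus differed between these classes, each of at most 126 cells per library.

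No member was 1.5-fold apart in 5 classes. In choroid plexus epithelial-like cells, 3.57% of all genes were higher and 0.296% lower, and the ratios of the members ran from Sdhaf1 (0.850) and Ndufv1 (0.881) to Cox7a1 (1.31) and Ndufb1 (1.32). In ependymal-like cells (1.72% and 1.07% of all genes) they included Atp5g1 (0.747) at the low end and Sdhaf1 and Ndufb1 at the high end (both 1.30), and in endothelial-like cells (1.54% and 0.964%) they ran from Sdhaf1 (0.735) and Sdhaf4 (0.821) to Ndufa3 (1.28) and Ndufb1 (1.35). In BAM-like cells (2.2% and 0.96%) the ends were Cox6b2 (0.746) and Ndufv1 (0.835), and Atp5mpl, a small membrane subunit of complex V (1.26), and Ndufb1 (1.34). In microglia-like cells (1.72% and 0.924%) they were Sdhaf1 (0.772) and Atp5g1 (0.794), and Ndufb1 (1.30) and Ndufa3 (1.34). Ndufb1 was among the 2 highest ratios in each of these 5 classes.

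**Figure D5:**
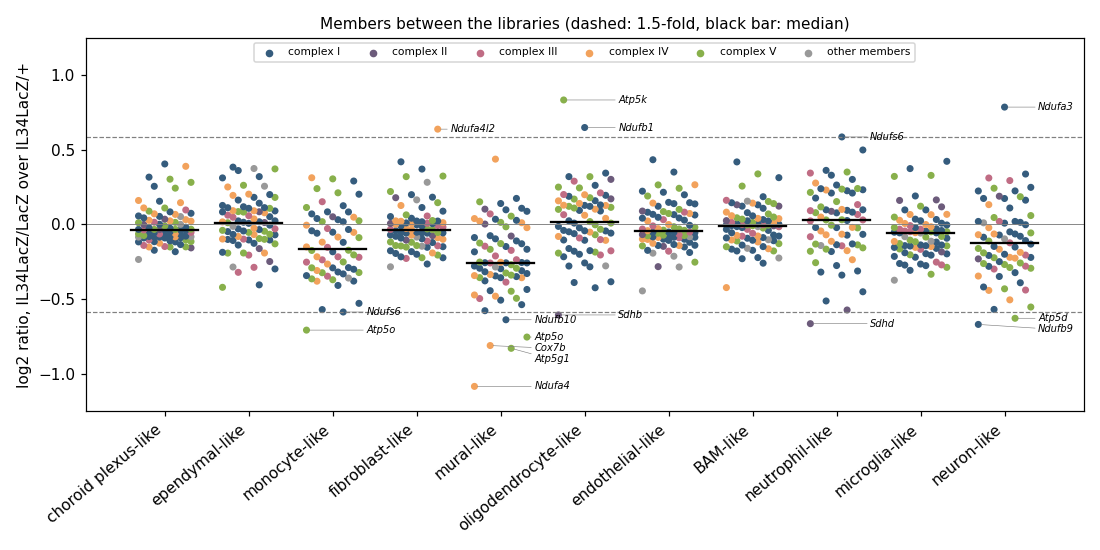
log2 ratio of CPM, IL34LacZ/LacZ over IL34LacZ/+ (vertical axis), of each member with at least 100 UMIs (points, coloured by complex) in the 11 classes (horizontal axis); black bars are medians, dashed lines 1.5-fold, and members past 1.5-fold are named. In 5 classes no point is past a dashed line, and the lowest point is Ndufa4 in mural-like cells (451 and 213 CPM).

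A few members had the same direction in most or all classes. Of 61 members with at least 100 UMIs in every class, 1 was higher in the IL34LacZ/LacZ library in all 11 classes. That count is near the share of all genes (1.84% of 815 genes). It was Ndufb1, with a ratio between 1.01 in neuron-like and 1.57 in oligodendrocyte-like cells. Its interval spanned 1 in neuron-like (0.771 to 1.34), mural-like (0.883 to 1.38) and monocyte-like cells (0.951 to 1.40). By its name the gene is a complex I subunit, and its GENCODE vM21 entry at chr12:101968090-101977068 (minus strand) is typed as a long noncoding RNA at a bidirectional promoter, so which transcript its UMIs come from cannot be told apart here. Cox4i1, Atp5d, Atp5o and Ndufa11 were lower in all 11 classes (2.21% of genes were). Cox4i1 ratios lay between 0.721 and 0.965 and those of Atp5d between 0.647 and 0.950. The 11 classes come from the same 2 libraries and are no replicates of each other. Ttr was higher in the IL34LacZ/+ library in all 10 other classes, and after the choroid plexus profile of the same library was subtracted in proportion to Ttr, Ndufb1 was still higher in 11 classes, Atp5d lower in 11, Cox4i1 in 10, Atp5o in 9 and Ndufa11 in 8. In 10 of 11 classes Atp5k, Ndufa3, Atp5mpl and Cox7c were higher (4.79% of the 815 genes were), and Atp5c1, Ndufa8, Atp5b, Atp5g1, Uqcrfs1 and Ndufb9 were lower (7.48% were).

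The other genes of the pathway followed the members in part. The 13 subunits encoded by mitochondrial DNA were highest in choroid plexus epithelial-like cells (73493 and 70961 CPM) and lowest on average in microglia-like cells (28109 and 28769 CPM). In the IL34LacZ/LacZ library monocyte-like cells were lower still, at 28099 CPM. Neuron-like cells had 34353 and 36871 CPM. These 13 subunits spanned a far narrower range than the nuclear members, and cells with over 10% of such UMIs had been left out. None of their 138 pairs with a class was 1.5-fold apart between the libraries. The most abundant, mt-Co3, had its highest mean in fibroblast-like cells (14148 and 13818 CPM), and mt-Nd4l spanned the widest range, from 1318 and 1257 CPM in choroid plexus epithelial-like to 216 and 239 CPM in monocyte-like cells.

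Electron carriers and regulators in the list of genes outside the prefixes had the order of the members at the top. Cycs, cytochrome c, had 472 and 512 CPM in choroid plexus epithelial-like cells and 40.8 and 43.1 CPM in neuron-like cells, and Atpif1, the inhibitor of the ATP synthase, 571 and 558 CPM in choroid plexus epithelial-like cells. Of the pairs with a class, 0 of 32 were past 1.5-fold for this list, 5 higher and 2 lower of 264 for 47 assembly factors, 0 and 1 of 104 for the tricarboxylic acid cycle, and 7 and 8 of 572 for the mitochondrial ribosomal proteins. Assembly factors peaked in choroid plexus epithelial-like and ependymal-like cells at 2297 and 2337 CPM and 2211 and 2279 CPM, which hardly differed. The assembly factor Uqcc2 was highest in endothelial-like cells (253 and 263 CPM) and Cox20 in choroid plexus epithelial-like cells (309 and 324 CPM). Of the tricarboxylic acid cycle, Mdh2, malate dehydrogenase, was highest in choroid plexus epithelial-like cells (254 and 244 CPM) and Dlst, a subunit of oxoglutarate dehydrogenase, in neuron-like cells (172 and 140.4 CPM). The subunit-poor neuron-like class was thus not low for every mitochondrial gene.

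The summed glycolysis genes had the members' order at the top and the hypoxia genes did not. The 16 glycolysis genes had 6142 and 5918 CPM in choroid plexus epithelial-like cells, 3163 and 3124 CPM in ependymal-like cells, which came next, and their lowest sum in BAM-like cells (1346 and 1483 CPM). The 15 hypoxia response genes were highest in mural-like cells (1694 and 1630.0 CPM) and lowest in neutrophil-like cells (365 and 371 CPM). Within the glycolysis list the order varied. Slc2a1, the glucose transporter of the blood-brain barrier, was highest in endothelial-like cells (1172 and 1188 CPM) and lowest in fibroblast-like cells (11.4 and 13.9 CPM), while Gapdh, a glycolytic enzyme, had the members' highest and lowest class, with 1503 and 1479 CPM in choroid plexus epithelial-like and 139 and 131 CPM in neuron-like cells. Epas1, the hypoxia-inducible factor HIF-2 alpha, was highest in mural-like cells (1033 and 1005 CPM) and lowest in BAM-like cells (11.1 and 9.68 CPM). In mural-like cells, the class with Ndufa4l2 and Cox4i2, this 1 gene made up most of the sum of the hypoxia list. The regulators of mitochondrial biogenesis were highest in neuron-like cells (572 and 657 CPM), where the members were lowest, and Yy1, a transcription factor, was highest in mural-like cells (180 and 168 CPM) and lowest in choroid plexus epithelial-like cells (55.4 and 62.8 CPM). Of their pairs, 1 was higher and 3 lower of 144 for glycolysis, 2 higher and 0 lower of 78 for hypoxia and 1 higher and 0 lower of 53 for the regulators. The 3 lower glycolysis pairs were Eno1, Ldhb and Pgk1, all in mural-like cells. Cytosolic ribosomal proteins, by contrast, were lowest in neuron-like cells too, at 18153 and 18959 CPM, against 222609 and 209904 CPM in monocyte-like cells.

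In the promoters of the members, motifs of 3 factors linked to respiratory genes occurred more often than in protein-coding genes at large, as a description only. RefSeq windows of 300 bases were matched for 74 of the 92 symbols, and both strands were searched. The palindromic NRF1 motif was in 24.3% of member promoters and 6.60% of 17492 protein-coding promoters, the ETS motif CCGGAAG in 25.7% and 11.9%, and the YY1 motif AAGATGGCG in 8.11% and 1.94%. The GC box GGGCGG was in 44.6% and 46.3%, the hypoxia core ACGTG in 25.7% and 20.7%, and the E-box CACGTG, which contains ACGTG, in 8.11% and 7.90%. The printed Cox8b promoter held 2 hypoxia cores and none of the ETS motif, and that of Cox8a held 2 ETS motifs and no hypoxia core.

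Some members share sequence at the 3′ end where UMIs are counted. In GENCODE vM21, 17 members had a copy elsewhere that was at least 98% identical over at least 90 bases of the last 300, mostly pseudogenes, including Atp5g1, Atp5g2, Cox6c, Cox7c, Uqcrb, Uqcr11 and Atp5l, and 4 had the copy among the features of the count tables. Ndufa13 overlaps Yjefn3, Cox4i1 overlaps Gm20388, Cox7c overlaps Gm22574 and Ndufb8 overlaps Gm20538 on the same strand, and the Atp5o entry at chr16:91925214-91931687 (minus strand) overlaps the other Atp5o entry. Counts of these members are uncertain to the extent that the authors' counting dropped or split such reads. Ndufa4l2, Cox4i2, Cox8a, Cox8b and Ndufa4 had neither a copy nor an overlap of this kind.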

How the data were processed

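Droplet single-cell RNA-seq (Chromium Next GEM 3′ v3.1, per the labels) was deposited as filtered matrices of UMI counts per gene and cell barcode, 1 per genotype, which per the file headers the authors made with Cell Ranger 5.0.0, with builds GRCm38.p6 and mm10 per the submitters' processing notes. Lowest depth was 500 UMIs per barcode. Doublet removal before deposit is not stated in the sources used here.

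Barcodes with at least 1000 UMIs, 500 genes and at most 10% mitochondrial UMIs were kept, and doublets called by Scrublet (expected 10%) were removed, 6.67% and 7.23% of barcodes. Cells were clustered with scanpy 1.11.5 and leidenalg 0.10.2 (2000 variable genes without the members, 30 principal components, 20 neighbours, resolution 1, seed 1), and 32 clusters were named from 19 marker lists. The naming thresholds were set after the data were seen: a mean log2 enrichment of at least 3 (pseudocount 10 CPM), at least 3 markers up, a lead of 1 over the next type, and the next type at no more than 0.6 of it. Unnamed clusters held 12.5% and 14.1% of kept cells.

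UMIs were summed per class and library and divided by all UMIs of that class and library (CPM). With 1 library per genotype no test was possible, and no p-value was computed. Levels carry exact Poisson, ratios exact conditional binomial and shares Clopper-Pearson intervals at 95%, all for counting error. A gene counted as apart at 1.5-fold with at least 100 UMIs. In the main comparisons of libraries and of class pairs, the share of all genes past the same fold stands beside the counts of members. Most counts under the alternatives, and those of the pathway lists, carry no such share. A count of 0 allows up to 3 UMIs. The ratio and interval code was tested on simulated counts. Motifs and sequences came from RefSeq promoters, and 3′ copies were searched with blastn 2.17.0. Named members were those of families with several forms, the highest, lowest and widest-ranging of each complex, those past the fold (or the 2 highest and lowest ratios), the 5 largest and smallest folds of each class pair, and 4 of each pathway list. Ndufs1 and the other profile members, and those with 1 direction in 10 or 11 classes, were picked after their values were seen. Members, lists and comparisons were chosen with earlier results of these data known. The 16 alternatives tried are given in the closing section. A member is counted but its values are not reported here.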

Additional observations from a re-analysis of the deposited data

Results flagged for a closer look

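Ndufs6, a matrix arm subunit of complex I, moved in opposite directions between the libraries in 2 blood cell classes. In neutrophil-like cells its ratio, IL34LacZ/LacZ over IL34LacZ/+, was 1.5 (95% interval 0.983 to 2.36, from 28 and 109 UMIs), and in monocyte-like cells it was 0.666 (0.455 to 0.985, from 44 and 80 UMIs). The classes held 67 and 126 and 54 and 103 cells. The difference between them was not tested, since each value rests on 1 library per genotype, and the interval in neutrophil-like cells spans 1.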

How the results depend on the processing

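Leaving out a replicate was not possible with 1 library per genotype. No paired analysis was possible because the groups share only 1 replicate number. Over 25 results and 16 alternatives, of which 3 were chosen after seeing the data, 271 values were computed: 164 lay close to the reported value (within its counting interval, the range of both libraries or 1.5 times a count), 99 did not, and 8 ratios crossed 1 although the counting interval of the reported ratio lay on 1 side of it, which is what a change of direction means here. Another 11 ratios crossed 1 where the reported interval spans 1, so they have no direction to change. The cause of these changes was not tested. Classes outside the choroid plexus held UMIs of Ttr, members with at least 100 UMIs were fewest in monocyte-like (64) and neutrophil-like cells (71), and 2 libraries allow no statement on genotype beyond them.

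Values without a unit are ratios of summed members, IL34LacZ/LacZ over IL34LacZ/+. With at most 5% mitochondrial UMIs the ratios were 1.02 in BAM-like, 0.976 in choroid plexus epithelial-like, 1.02 in endothelial-like, 0.907 in fibroblast-like, 0.982 in microglia-like and 1.0005 in monocyte-like cells, so choroid plexus epithelial-like and monocyte-like cells changed direction; choroid plexus epithelial-like cells were then 3.91-fold the median class, BAM-like over microglia-like cells 1.12-fold, and 2 members were higher and 1 lower over all classes. Mural-like (44 cells in IL34LacZ/+), ependymal-like, neuron-like and oligodendrocyte-like cells gave no value there. With at most 20% the ratios were 0.981 in BAM-like, 0.993 in ependymal-like (a change of direction) and 0.960 in fibroblast-like cells, choroid plexus epithelial-like cells 2.99-fold the median class, 5 members higher and 1 lower in mural-like than endothelial-like cells, and the mural-like shares 57.1% and 76.2% for Ndufa4l2 and 28.6% for Cox4i2 in IL34LacZ/+. With doublets kept the ratios were 0.973 in fibroblast-like, 0.785 in mural-like, 0.981 in microglia-like and 1.13 in neuron-like cells (a change of direction), choroid plexus epithelial-like cells were 2.95-fold the median class, mural-like over endothelial-like cells 1.27-fold, 10 members lower in mural-like cells, and the shares 55.8% and 63.1% for Ndufa4l2 and 27.7% and 40.1% for Cox4i2. With members among the variable genes the ratios were 0.994 in BAM-like and 0.794 in mural-like cells, choroid plexus epithelial-like cells 3.03-fold the median class, 10 members lower in mural-like cells and the Ndufa4l2 shares 70.3% and 84.6%. At resolution 0.5 BAM-like cells had 0.995 and choroid plexus epithelial-like cells 3.04-fold the median class. With at least 2000 UMIs per cell the ratios were 1.02 in BAM-like, 1.02 in endothelial-like and 0.989 in microglia-like cells, choroid plexus epithelial-like cells 2.98-fold the median class, 10 members lower in mural-like cells, 1 higher in BAM-like than microglia-like cells, and the shares 52.6% and 76.4% for Ndufa4l2 and 26.2% for Cox4i2 in IL34LacZ/+. Monocyte-like cells gave no value with at most 20%, doublets kept, resolution 0.5 or 2000 UMIs.

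Scaled without mitochondrially encoded genes, choroid plexus epithelial-like cells were 3.06-fold the median class, and without cytosolic ribosomal genes as well 3.05-fold, with BAM-like over microglia-like cells at 1.23-fold. With equal weight per cell the ratios were 0.975 in BAM-like, 0.99985 in choroid plexus epithelial-like (a change of direction), 0.968 in endothelial-like, 0.957 in fibroblast-like, 0.949 in microglia-like cells and 0.879 in mural-like ones, and choroid plexus epithelial-like cells were 3.18-fold the median class. As means over clusters the ratios were 0.992 in BAM-like, 1.01 in endothelial-like and 0.951 in fibroblast-like cells. With the fold threshold set 25% above 1, 29 members were higher and 70 lower over all classes, 27 lower in mural-like cells, 13 higher and 7 lower in mural-like than endothelial-like cells and 25 higher in BAM-like than microglia-like cells. With at least 400 UMIs, 2 were higher and 1 lower over all classes, 1 lower in mural-like cells and 1 higher in BAM-like than microglia-like cells. With no minimum above 1 UMI, 29 were higher and 47 lower, 10 lower in mural-like cells and 2 lower in BAM-like than microglia-like cells.

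Without cells with at least 5% choroid plexus marker UMIs the ratios were 1.01 in BAM-like, 1.01 in fibroblast-like (a change of direction) and 0.960 in mural-like cells, choroid plexus epithelial-like cells 3.03-fold the median class, 2 members lower in mural-like cells and 7 over all classes, 5 higher and 5 lower in mural-like than endothelial-like cells, and the IL34LacZ/+ shares 77.1% for Ndufa4l2 and 42.1% for Cox4i2. With the choroid plexus profile subtracted the ratios were 1.03 in BAM-like, 1.01 in endothelial-like, 1.01 in fibroblast-like (a change of direction), 0.935 in mural-like, 0.989 in microglia-like and 1.14 in neuron-like cells (a change of direction), and choroid plexus epithelial-like cells were 3.11-fold the median class. Without mural-like cells with at least 10 endothelial marker UMIs, 5 members were lower in mural-like than endothelial-like cells, and the shares were 81.8% and 87.9% for Ndufa4l2 and 43.6% and 52.6% for Cox4i2.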

Other observations

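Cells left out by the limit on mitochondrial UMIs held many member transcripts. In barcodes with over 10% to 20% mitochondrial UMIs the members made up 43253 CPM in the IL34LacZ/+ library and 37621 CPM in the IL34LacZ/LacZ library, against 38641 and 31173 CPM at over 5% to 10% and 20610.0 and 18402 CPM at or below 5%. Over 20%, they made up 29894 and 28893 CPM. Of choroid plexus epithelial-like cells, 45.9% and 42.1% lay within 2 percentage points of the limit, against 1.19% and 1.54% of microglia-like cells.

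The level of the members differed among the clusters that stayed unnamed. A cluster led by Rspo3, Ccn3 and Gjb6, of 672 and 755 cells, had 27030 and 27215 CPM of members, above every named class but choroid plexus epithelial-like cells, and Cox6b2 in it had 140.5 and 152 CPM, above the level in fibroblast-like cells. A cluster led by Camp, S100a8 and Ngp, of 56 and 115 cells, had 27434 and 24678 CPM, against 14174 and 14509 CPM in neutrophil-like cells. By contrast, a cluster led by Pf4, Mrc1 and F13a1, of 168 and 230 cells, had 14226 and 14852.5 CPM. That was near the level of microglia-like cells (14299 and 13784 CPM).

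Within fibroblast-like cells the 3 clusters differed. The cluster with the most Ndufa4l2 (35.2 and 56.1 CPM) had summed members of 20432 and 16367 CPM, the lowest of the class in both libraries, and the highest Ttr of the class (31210 and 4405 CPM); the part of that RNA in the difference was not tested.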
